A study of Mus musculus with 6 samples.

Results

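In the brain and the neural retina, Norrin and certain Wnt proteins instruct endothelial cells (ECs) to build a tight, transporter-rich blood vessel wall. The 10 mouse genes described here belong to that pathway or to the barrier genes it is known for, and they were asked of the choroid, whose capillaries are fenestrated and leaky. They were chosen by symbol: the receptor Fzd4, its co-receptors Lrp5 and Lrp6 and its helper Tspan12, the transcription factor Lef1, the target genes Axin2 and Apcdd1, and the barrier transporters Mfsd2a, Abcb1a and Abcg2. All 10 were found among the 22026 gene symbols listed in each of the 6 samples.

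The samples were RNAseq libraries of native choroid ECs from mice of strain 129/B6, 3 independent isolations at postnatal day 5 (P5) and 3 at postnatal day 30 (P30), with 7 animals pooled in each isolation. Living animals of both ages were injected with an antibody to the endothelial cadherin VE-Cadherin, and labelled cells were sorted from the dissected RPE and choroid by flow cytometry. P30 animals were of both sexes, and no treatment other than the antibody and anaesthesia is described for either age. The comparison asks how gene expression in these cells differs between the 2 ages.

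As background, Norrin and Wnt ligands bind a Frizzled receptor together with Lrp5 or Lrp6, and the tetraspanin Tspan12 strengthens the Norrin signal through Fzd4. The bound receptor stops the destruction of beta-catenin, which enters the nucleus and acts with Lef1 or its TCF relatives on target genes such as Axin2 and Apcdd1, both of which feed back on the pathway. In retinal and brain vessels this signal is needed for barrier properties, among them low Plvap, high Cldn5 and Slc2a1, and the lipid transporter Mfsd2a.

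Expression is given as FPKM, the authors' measure of sequenced fragments scaled to transcript length and to the size of the library. Being per length, it allows genes to be compared with each other. Where 3 values are given for an age, they stand in the order of replicates 1, 2 and 3. Differences between ages are on the scale of log2(FPKM + 1), which understates the change of low genes. They were tested with limma over 12481 genes whose mean FPKM reached 5 at either age or both, a minimum that all 10 genes passed, and adjusted p-values are Benjamini-Hochberg values over all of these genes. Mfsd2a passed this minimum only through P30, as its P5 mean was 3.16 FPKM. A gene was said to rise or fall at an adjusted p under 0.01. The deposited values hold no read counts, so the depth of each library is unknown and counting error could not be estimated.

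The endothelial label of the samples was checked first. The summed FPKM of 7 endothelial markers lay between 13427 and 13668 at P5 and between 15769 and 17138 at P30, with Emcn the highest in mean at both ages, followed by Cdh5 at P5 and by Kdr at P30. Of the 7, 1 rose (Emcn) and 1 fell (Cdh5, which encodes VE-Cadherin, the protein used for the sort), and 5 did not pass. Markers of other cell types were also found, with lower sums that differed between ages and isolations. Sums over different genes do not measure how many cells of each type were present. The sum of 6 markers of the retinal pigment epithelium (RPE), of which Ttr and Rgr had the highest FPKM, was 124, 56.8 and 60.9 at P5 and 3496, 1932 and 418 at P30. All 6 were higher in every P30 isolation than in every P5 isolation, a pattern of 22.0% of the genes tested. Of the 5 tested, 4 rose, beside 8.51% of all genes tested. Rpe65 and Lrat, among the 4, had P5 means under 5 FPKM and were tested only because of P30. The sum of 7 pericyte markers, led by Rgs5, was 497 to 1765 at P5 and 1872 to 6290 at P30. The 5 proliferation markers, led by Ccna2 and Top2a, summed to 562 to 1048 at P5 and 9.46 to 14.6 at P30, and all 5 fell. Among P5 isolations, replicate 3 had the highest proliferation sum and the lowest pericyte sum. The sum of 6 markers of retinal and brain ECs, led by Itm2a and Slco1a4, was 861 to 1180 at P5 and 2512 to 2941 at P30. Of the 5 tested, 2 rose (Itm2a and Slc22a8), beside 8.51% of all genes tested. Of these 6, 4 (Itm2a, Slco1a4, Slc22a8 and Spock2) were higher in every P30 isolation than in every P5 isolation, a pattern of 22.0% of the genes tested, and Slco1c1 and Slc38a5 overlapped between ages. Slco1a4, Slco1c1, Slc38a5 and Slc22a8 are also in the list of barrier transporters below, where Slc22a8 is counted again among the rises. In sorted bulk samples, a change in the number of cells of a type and a change in RNA per cell cannot be told apart. Some genes below are said to be in the same order as a marker sum. The RPE and photoreceptor sums ranked the isolations alike, as did those of pericytes and of retinal and brain ECs. A match to both lists of such a pair is therefore the same match. With 3 isolations per age an order can be shared by coincidence, and how often was not computed.

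**Figure D1:**
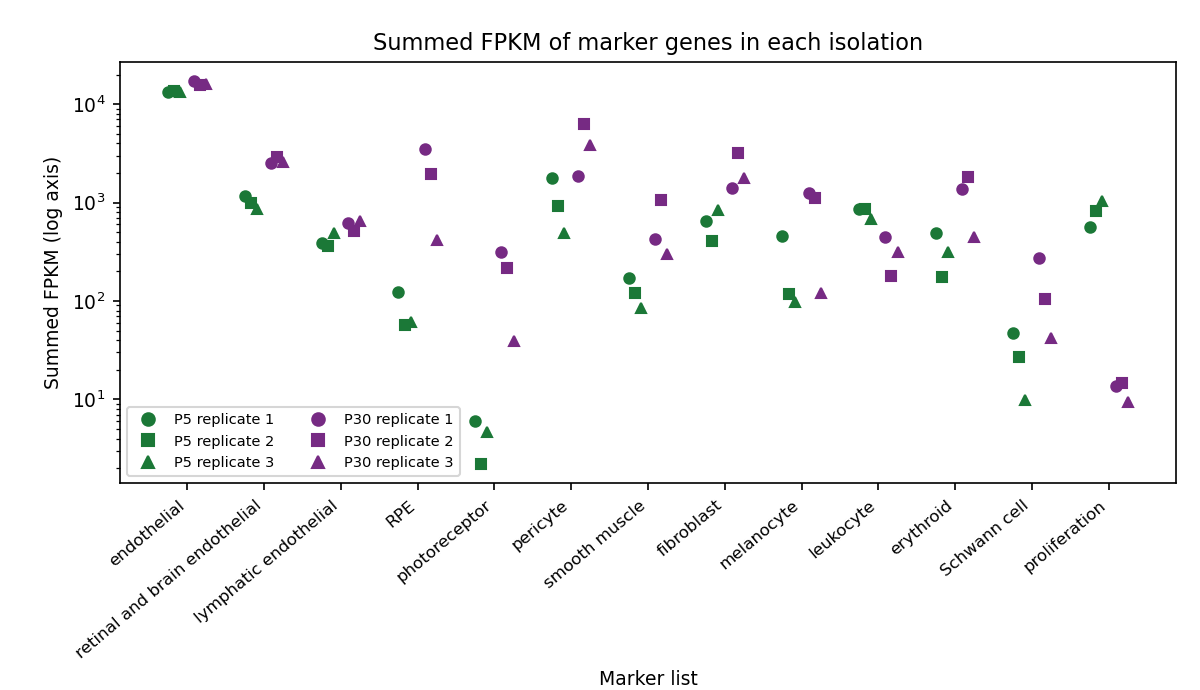
Summed FPKM (log axis) of 13 lists of marker genes in each of the 6 isolations, with P5 in green and P30 in purple and a symbol for each replicate. The endothelial sum is the highest in every isolation, the RPE sum lies between 418 and 3496 at P30, and the proliferation sum lies between 9.46 and 14.6 there.

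Of the 10 genes, 5 rose between P5 and P30, 0 fell and 5 did not pass the test. The 5 that rose were Fzd4, Lrp5, Lef1, Mfsd2a and Abcb1a, against 8.51% of all genes tested that rose and 10.7% that fell at the same limit. The number that rose was 2 without P5 replicate 2 and 3 without P5 replicate 1, P5 replicate 3, P30 replicate 1 or P30 replicate 2. In 3 of them, Lef1, Mfsd2a and Abcb1a, the rise was at least 2-fold in mean FPKM + 1, a size of rise reached by 5.89% of the genes tested, against 5.82% with a fall of that size. All 3 P30 isolations lay above all 3 P5 isolations for 8 of the 10 genes, a pattern shown by 22.0% of the genes tested, while the reverse pattern, shown by 33.0% of the genes tested, occurred in 0 of the 10, and Lrp6 and Tspan12 overlapped between ages. Mfsd2a, which reached the FPKM minimum only at P30, is counted among the 5, the 3 and the 8. The log2 difference was above 0 for 10 of 10 genes, with a median of 0.73, while the median over all genes tested was -0.10. When FPKM was rescaled to the same sum in every sample the median of all genes was -0.27, and when it was scaled by the endothelial markers it was -0.24, so differences near 0 depend on the scaling.

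**Figure D2:**
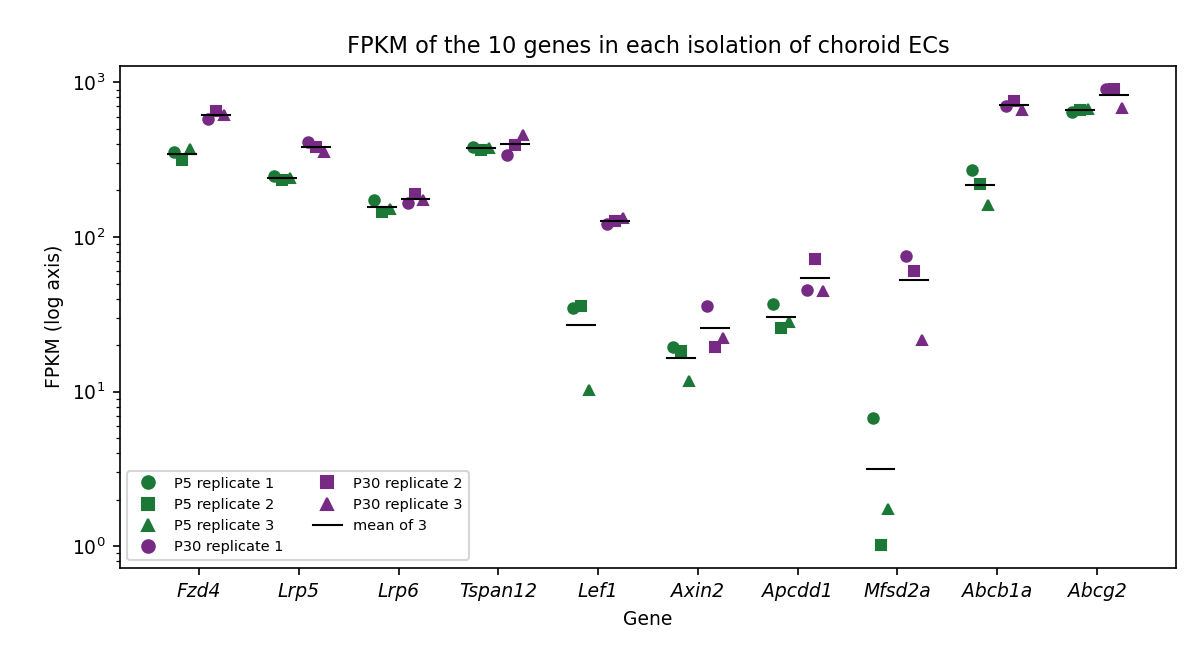
FPKM (log axis) of the 10 genes in each isolation, P5 in green and P30 in purple, with a symbol for each replicate and a line at the mean of 3. The ages are separate for 8 genes and overlap for Lrp6 and Tspan12, and the P5 isolations are far apart for Mfsd2a (1.02 to 6.71) and Lef1 (10.3 to 36.0).

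Among the receptors, Fzd4, the only Frizzled that binds Norrin, lies on chromosome 7 (mm9 chr7:96552876-96558620). Its FPKM was 352, 315 and 371 at P5 and 577, 651 and 613 at P30. The ages did not overlap, and the spread within each was small beside the gap. The mean rose 1.77-fold, from 346 ± 28.4 to 614 ± 36.9 (SD, n = 3 each), a log2 difference of 0.82 with a SE of 0.10 (adjusted p = 0.00112, limma). Fzd4 passed the test in 16 of 16 alternative analyses, with log2 differences between 0.65 and 0.88. Its 6 isolations were in the same order as in the summed fibroblast markers, whose part in this rise was not tested.

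Lrp5, the co-receptor used in Norrin signalling in the retina (mm9 chr19:3584825-3686564), was at 249, 233 and 240 FPKM at P5 and at 414, 383 and 353 FPKM at P30. Every P30 isolation was higher than every P5 isolation. The mean rose 1.59-fold, from 241 ± 8.07 to 383 ± 30.5 (SD, n = 3 each), with a log2 difference of 0.67 and a SE of 0.10 (adjusted p = 0.00215, limma). Its 6 isolations were in the same order as in the summed markers of RPE and in those of photoreceptors, whose part in this rise was not tested. Leaving out P5 replicate 1, 2 or 3 took its adjusted p to 0.0108, 0.0175 and 0.0133 in limma, past the limit of 0.01, with log2 differences of 0.69, 0.64 and 0.66.

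Its relative Lrp6, which serves Wnt signals more widely (mm9 chr6:134396494-134516983), was at 174, 145 and 153 FPKM at P5 and at 165, 189 and 174 FPKM at P30, in replicates 1, 2 and 3. The ages overlapped. The log2 difference was 0.16 with a 95% interval from -0.09 to 0.42 (adjusted p = 0.269, limma), and it was -0.01 when samples were rescaled to the same FPKM sum.

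For Tspan12, the tetraspanin that acts with Fzd4 (mm9 chr6:21721395-21802515), the P5 replicates were at 382, 366 and 377 FPKM and the P30 replicates at 337, 394 and 461 FPKM. One P30 isolation lay below and the other two above all P5 isolations. The log2 difference was 0.07 with a 95% interval from -0.22 to 0.36 (adjusted p = 0.673, limma). Its sign turned under 3 scalings and without P30 replicate 3. A rise of the size seen for Fzd4 or Lrp5 lay outside the interval of Tspan12.

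**Figure D3:**
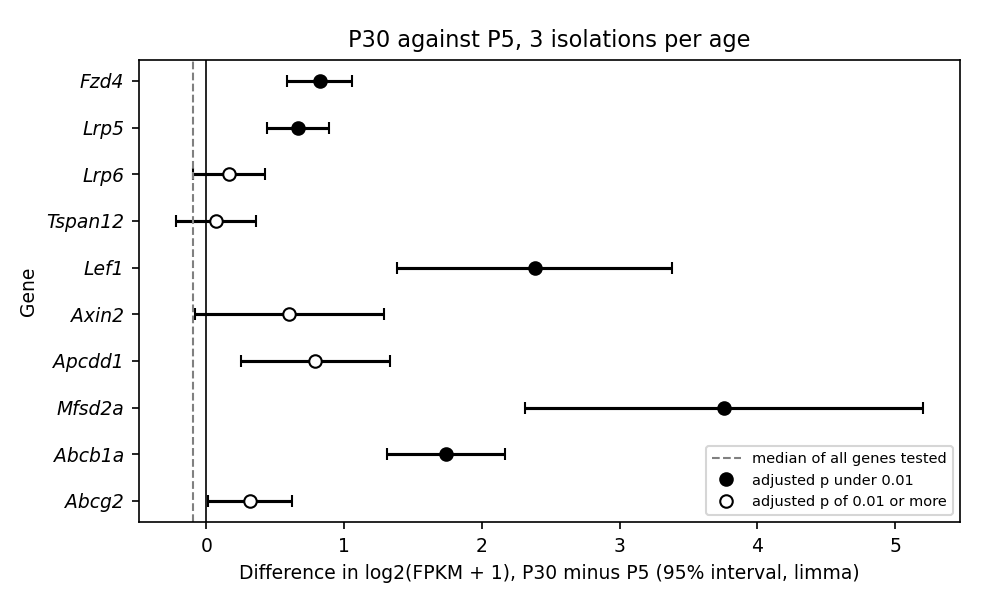
Difference in log2(FPKM + 1), P30 minus P5, for the 10 genes, with the 95% interval from limma and filled points where the adjusted p was under 0.01. The differences run from 0.07 for Tspan12 to 3.76 for Mfsd2a, and the dashed line marks the median of all genes tested at -0.10.

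Within the Frizzled family, Fzd4 held a larger share in every P30 isolation than in any P5 isolation. Fzd4 made up 41.6%, 39.7% and 49.5% of the summed FPKM of Fzd1 to Fzd10 at P5, and 63.6%, 59.1% and 59.4% at P30. At P5 it was thus near the share of Fzd6, a Frizzled mostly known for planar polarity, which held 41.8%, 45.6% and 32.5%, and at P30 Fzd6 held 16.5%, 16.7% and 19.1%. The mean share of Fzd4 was 43.6% ± 5.17 at P5 and 60.7% ± 2.54 at P30, without overlap (exact two-sided permutation test, n = 3 each, p = 0.1, the smallest this design allows, and 0.15 after adjustment over 3 shares). The summed FPKM of the family was 847, 795 and 751 at P5 and 907, 1102 and 1031 at P30.

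**Figure D4:**
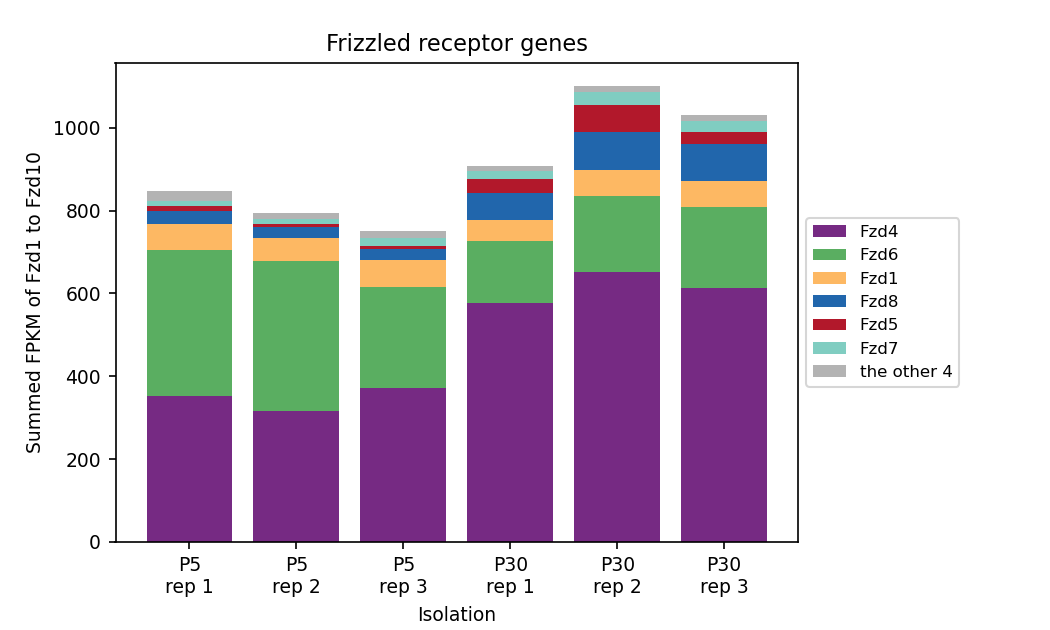
Stacked bars of the FPKM of the 10 Frizzled genes in each isolation. Fzd4 (purple) takes 39.7% to 49.5% of the bar at P5 and 59.1% to 63.6% at P30, while Fzd6 (green) takes 32.5% to 45.6% and then 16.5% to 19.1%.

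Other Frizzled genes also moved. Fzd8 was at 32.3, 26.1 and 25.7 FPKM at P5 and at 65.8, 89.8 and 88.8 FPKM at P30, and rose with a log2 difference of 1.50 (SE 0.17, adjusted p = 0.000863, limma). Fzd5 was at 10.3, 7.96 and 7.99 FPKM at P5 and at 33.8, 65.7 and 30.4 FPKM at P30, and rose with a log2 difference of 2.11 (SE 0.31, adjusted p = 0.00228, limma). The isolations of Fzd8 were in the same order as in the summed pericyte markers and in those of retinal and brain ECs, whose part was not tested. Neither gene overlapped between ages, and both had lower FPKM than Fzd4 in every isolation. Fzd5 missed the limit without P5 replicate 2 or 3 (adjusted p of 0.0139 and 0.0149, limma). Fzd6 went from 354, 363 and 244 FPKM to 149, 184 and 197 FPKM, a log2 difference of -0.84 that did not pass the limit (adjusted p = 0.0103, limma) but did under 3 scalings and without P5 replicate 3 (adjusted p from 0.00371 to 0.00770, limma). It was singled out after its values had been seen, as the other large member of the family.

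Lrp5 took 58.9%, 61.7% and 61.2% of the FPKM of Lrp5 plus Lrp6 in the P5 replicates and 71.5%, 66.9% and 67.0% in the P30 replicates. The P30 shares were all above the P5 shares, by a mean of 7.91 percentage points (exact two-sided permutation test, n = 3 each, p = 0.1, 0.15 after adjustment over 3 shares). Lrp5 thus had the higher FPKM of the pair in every isolation.

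The partners through which ECs receive Wnt7 signals in the brain moved in opposite directions. Gpr124 (now Adgra2), the adhesion receptor of this complex, was at 434, 454 and 406 FPKM at P5 and at 260, 323 and 260 FPKM at P30, and fell by 0.62 on the log2 scale (SE 0.12, adjusted p = 0.00588, limma). Reck, the anchored protein that binds Wnt7 beside it, was at 120, 111 and 97.2 FPKM at P5 and at 174, 222 and 192 FPKM at P30, and rose with a log2 difference of 0.83 (SE 0.13, adjusted p = 0.00303, limma). The isolations of Reck were in the same order as in the pericyte markers and in those of retinal and brain ECs, whose part was not tested. Neither gene overlapped between ages. Gpr124 missed the limit in 7 of 16 alternatives, among them 5 of the 6 in which 1 isolation was left out, with adjusted p-values up to 0.0341 in limma, and Reck missed it without P5 replicate 2 or 3 (adjusted p of 0.0178 and 0.0165). Among the 21 receptors and co-receptors listed, 17 were tested, 5 rose (Fzd4, Lrp5, Fzd5, Fzd8 and Reck) and 1 fell (Gpr124), or 29.4% and 5.88%, beside 8.51% and 10.7% of all genes tested. Their median log2 difference was 0.16, beside -0.10 over all genes.

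Most ligand and agonist genes were low in these sorted cells. Ndp, which encodes Norrin, was listed at 0.89, 0 and 0 FPKM in the P5 replicates and at 0, 2.12 and 3.68 FPKM in the P30 replicates, below the minimum for the test, and Wnt7a and Wnt7b were among 7 of 24 ligand and agonist genes listed at 0 in every isolation. A value of 0 in these files is not taken as absence. The ligand with the highest mean FPKM was Wnt5b, a Wnt usually linked to beta-catenin-independent signals, at 62.7, 53.4 and 26.3 FPKM at P5 and 44.1, 54.6 and 42.7 FPKM at P30. Its ages overlapped, and the log2 difference of 0.07 (95% interval from -0.65 to 0.79, adjusted p = 0.872, limma) turned sign under 2 scalings. Of the 8 ligands and agonists tested, 0 passed in limma in either direction, beside 8.51% of all genes that rose and 10.7% that fell, and 6 had an unadjusted p under 0.05. Their median log2 difference was 1.57, beside -0.10 over all genes, but 2 of the 8 (Wnt6 and Wnt10a) were listed at 0 in every P5 isolation, so that their fitted differences depend on the pseudocount. In 5 of the 8 (Wnt5a, Wnt6, Wnt9a, Wnt11 and Rspo2) the ages did not overlap and P30 was the higher, a pattern of 22.0% of the genes tested. Wnt2, Wnt6, Wnt9a, Wnt10a, Wnt11 and Rspo2 had P5 means under the minimum of 5 FPKM and were tested only because of P30. That selection favours higher P30 values, so no rise of the ligands can be read from the median or from this pattern. Wnt11 was at 0.86, 0.42 and 0.61 FPKM at P5 and at 7.75, 7.23 and 3.29 FPKM at P30 (adjusted p = 0.0182, limma), and Rspo2, an agonist that strengthens Wnt signals, was at 3.99, 0.60 and 1.01 FPKM at P5 and at 7.62, 22.7 and 6.82 FPKM at P30 (adjusted p = 0.0275, limma). Wnt6 was listed at 0 in every P5 isolation and at 14.5, 12.7 and 1.45 FPKM at P30 (adjusted p = 0.0230, limma). Of 16 alternatives, Wnt11 passed in 4, Wnt6 in 1 (without P30 replicate 3) and Rspo2 in 0. The isolations of Wnt11 were in the same order as in the RPE and photoreceptor markers. Those of Wnt6 at P30 were in the order of the RPE, photoreceptor, melanocyte and Schwann cell markers. The part of such cells was not tested for either gene. Wls, the carrier that brings Wnts to the cell surface, was at 211, 186 and 182 FPKM at P5 and 154, 260 and 210 FPKM at P30, with a log2 difference of 0.08 (adjusted p = 0.754, limma).

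Lef1, the transcription factor that carries beta-catenin to its target genes (mm9 chr3:130813389-130927274), had FPKM values of 34.7, 36.0 and 10.3 at P5 and of 122, 126 and 133 at P30. The P30 isolations lay close together and far above all P5 isolations, of which replicate 3 was the lowest. The mean rose 4.72-fold, from 27.0 ± 14.5 to 127 ± 5.65 (SD, n = 3 each), a log2 difference of 2.38 (SE 0.43, adjusted p = 0.00521, limma). This call was close to the limit. None of the 13 marker lists ranked the 6 isolations as Lef1 did. P5 replicates 1 and 2 were nearly equal in Lef1, however, so its exact order cannot show whether other cells had a part. P5 replicate 3 was also the lowest of its age in the pericyte, smooth muscle, and retinal and brain EC sums. The same held for the melanocyte, leukocyte and Schwann cell sums, but not for the other lists. The part of such cells in the rise of Lef1 was not tested. Without P5 replicate 3 the log2 difference was 1.82 and the gene still passed, while with any other isolation left out, or without the trend in limma, the adjusted p was 0.0104 to 0.0167 with log2 differences from 2.35 to 2.68.

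Its relatives Tcf7l2 and Tcf7 were lower in every P30 isolation than in any P5 isolation. Tcf7l2 was at 59.5, 60.2 and 65.1 FPKM at P5 and at 24.4, 26.3 and 23.9 FPKM at P30, and fell by 1.28 on the log2 scale (SE 0.13, adjusted p = 0.000499, limma), as it did in 16 of 16 alternatives. Its isolations were in the same order as in the summed proliferation markers, whose part was not tested. Tcf7 was at 64.9, 65.0 and 48.8 FPKM at P5 and at 45.7, 37.4 and 36.9 FPKM at P30, with a log2 difference of -0.56 that did not pass (adjusted p = 0.0332, limma). The ratio of Lef1 to Tcf7 in FPKM was 0.53, 0.55 and 0.21 in the P5 replicates and 2.67, 3.37 and 3.62 in the P30 replicates. Lef1 was therefore below Tcf7 in every P5 isolation and above it in every P30 isolation.

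Among the 18 genes of the intracellular relay, all tested, 2 rose and 4 fell, or 11.1% and 22.2%, beside 8.51% and 10.7% of all genes tested. Their median log2 difference was -0.31, beside -0.10 over all genes. Without Lef1, 1 of 17 rose and 4 fell, or 5.88% and 23.5%, and the median was -0.37. Ctnnb1, which encodes beta-catenin and also serves adherens junctions, had the highest FPKM of the list, at 3509, 3641 and 3545 at P5 and at 2560, 2576 and 2189 at P30. It fell by 0.55 on the log2 scale (SE 0.11, adjusted p = 0.00749, limma), and no isolation of either age overlapped the other age. Leaving out any 1 isolation took its adjusted p to between 0.0120 and 0.0442 in limma, past the limit. The other falls were those of Tcf7l2, of Gsk3b, a kinase that marks beta-catenin for destruction (from 156 ± 3.87 to 108 ± 9.71 FPKM, SD, n = 3 each), and of Ctnnbip1, an inhibitor of beta-catenin (from 130 ± 5.41 to 73.5 ± 11.6 FPKM, SD, n = 3 each). Beside Lef1, Dvl1, a relay protein below the Frizzled receptor, rose from 121 ± 11.4 to 187 ± 12.3 FPKM (SD, n = 3 each), with a log2 difference of 0.63 (adjusted p = 0.00474, limma). These calls were also close to the limit: Gsk3b and Dvl1 missed it without any 1 of the P5 replicates or without P30 replicate 1, Gsk3b also without P30 replicate 3 and Dvl1 also without P30 replicate 2, and Ctnnbip1 missed it without any 1 of the P5 replicates (adjusted p from 0.0113 to 0.0345, limma).

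The 2 feedback targets were higher at P30 in every isolation but did not pass the test. Axin2, a scaffold of the destruction complex that is widely read as a sign of beta-catenin activity (mm9 chr11:108781663-108812097), was at 19.4, 18.4 and 11.7 FPKM at P5 and at 36.0, 19.5 and 22.3 FPKM at P30. The highest P5 value and the lowest P30 value were almost equal. The log2 difference was 0.60 with a 95% interval from -0.08 to 1.29 (adjusted p = 0.141, limma), so that neither no change nor a 2-fold change lay outside it.

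Apcdd1, a membrane inhibitor of Wnt signals that is a known target in retinal ECs, was at 37.1, 25.9 and 28.3 FPKM at P5 and at 45.7, 72.4 and 44.4 FPKM at P30. The ages did not overlap, and P30 replicate 2 stood above the other P30 isolations. The mean was 30.4 ± 5.92 at P5 and 54.2 ± 15.8 at P30 (SD, n = 3 each), with a log2 difference of 0.79 and a 95% interval from 0.25 to 1.33 (adjusted p = 0.0318, limma). Neither Axin2 nor Apcdd1 passed in any of 16 alternatives.

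Of 15 listed targets, 12 were tested, 2 rose (Lef1 and Sox17) and 1 fell (Ccnd1). Without the 10 genes described here that was 1 of 9 in each direction, or 11.1%, near the 8.51% and 10.7% of all genes tested. Ccnd1, a cyclin of the cell cycle, went from 360, 354 and 511 FPKM to 102, 92.2 and 112 FPKM and fell by 1.97 on the log2 scale (SE 0.16, adjusted p = 0.000284, limma), beside the falls of all 5 proliferation markers. Sox17, a transcription factor of arterial and barrier ECs, went from 90.2, 86.0 and 67.5 FPKM to 254, 221 and 194 FPKM and rose with a log2 difference of 1.45 (SE 0.15, adjusted p = 0.000611, limma). Among 21 inhibitors, 12 were tested, 2 rose and 0 fell, or 16.7% and 0%, beside 8.51% and 10.7% of all genes tested. The risers were Dkk3, a divergent member of the Dickkopf family, from 14.2 ± 7.83 to 72.6 ± 32.3 FPKM (SD, n = 3 each, adjusted p = 0.00633, limma), and Kremen1, a receptor for Dickkopf proteins, from 67.7, 58.9 and 58.5 to 123, 109.9 and 101 FPKM (adjusted p = 0.00232, limma). The isolations of Dkk3 were in the same order as in the smooth muscle markers, whose part was not tested. Dkk3 missed the limit without P30 replicate 1 or 2 or P5 replicate 2 or 3, and Kremen1 without P5 replicate 2 or 3 (adjusted p from 0.0149 to 0.0314, limma). Nkd2, which blocks the relay below the receptor and had the highest mean FPKM of the inhibitors, was at 91.2 ± 12.4 at P5 and 124 ± 10.7 at P30 (SD, n = 3 each), with a log2 difference of 0.45 that did not pass (adjusted p = 0.0321, limma).

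Over the 6 pathway lists together, without the 10 genes described here, 55 of 85 genes were tested, 7 rose and 6 fell, which is 12.7% and 10.9%, beside 8.51% and 10.7% of all genes tested. Their median log2 difference was 0.25, beside -0.10 over all genes. The ligands and agonists tested only because of P30 are among the 55, and Fzd2, Sfrp2, Sfrp5 and Notum also reached the minimum only at P30. Fzd3 and Fzd10 reached it only at P5. As that selection favours higher P30 values in the former, no rise of the lists can be read from the median. The share that fell was close to that of all genes and the share that rose was somewhat higher. With the members of the lists among the 10 genes counted in, 10 rose and 6 fell, and leaving out 1 isolation gave 3 to 14 and 2 to 7, with 3 that rose without P5 replicate 2 and 4 without P5 replicate 3, and with 2 or 3 that fell without P30 replicate 1, P30 replicate 3 or any P5 replicate.

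Mfsd2a, the transporter that carries omega-3 lipids across the vessel wall and keeps transcytosis low in brain ECs (mm9 chr4:122624093-122638431), was at 6.71, 1.02 and 1.74 FPKM at P5 and at 75.0, 60.3 and 21.6 FPKM at P30. All P30 isolations were above all P5 isolations, but the isolations of each age were far apart. The mean rose 16.6-fold, from 3.16 ± 3.10 to 52.3 ± 27.6 (SD, n = 3 each), with a log2 difference of 3.76 (SE 0.62, adjusted p = 0.00368, limma). Without P5 replicate 1, the highest of its age, the P5 mean was 1.38 and the ratio of means 37.9, and with any other isolation left out the ratio was 12.4 to 21.4. The order of the 6 isolations in Mfsd2a was the same as in the summed RPE markers and in the summed photoreceptor markers, both highest in P30 replicate 1 and lowest in P5 replicate 2, and their part in the rise of Mfsd2a was not tested. The call was lost without P30 replicate 1 or 2, or P5 replicate 2 or 3, with adjusted p-values of 0.0113, 0.0142, 0.0165 and 0.0217 in limma and log2 differences from 3.36 to 3.58.

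Abcb1a, the P-glycoprotein pump that expels drugs from barrier ECs (mm9 chr5:8660077-8748575), was at 271, 220 and 160 FPKM at P5 and at 706, 764 and 668 FPKM at P30. The ages were far apart, with P5 replicate 3 the lowest. The mean rose 3.28-fold, from 217 ± 55.2 to 713 ± 48.4 (SD, n = 3 each), with a log2 difference of 1.74 (SE 0.18, adjusted p = 0.000615, limma). It passed in 16 of 16 alternatives, with log2 differences from 1.54 to 1.92. Relative to Pecam1, an endothelial adhesion protein that did not pass the test, the FPKM of Abcb1a was 0.18, 0.13 and 0.10 at P5 and 0.45, 0.53 and 0.54 at P30. The P30 ratios were all above the P5 ratios. The 6 isolations of Abcb1a were in the same order as in the summed smooth muscle markers, and at P5, but not at P30, also as in 5 other lists, among them those of retinal and brain ECs and of pericytes. The part of such cells in the rise was not tested.

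Abcb1b, the close paralog of Abcb1a, was at 46.0, 39.8 and 30.8 FPKM at P5 and at 79.96, 79.91 and 115 FPKM at P30 and rose with a log2 difference of 1.21 (SE 0.20, adjusted p = 0.00407, limma). Abcb1a made up 83.9% to 85.5% of the pair at P5 and 85.3% to 90.5% at P30, and the shares overlapped (exact two-sided permutation test, n = 3 each, p = 0.2, 0.2 after adjustment over 3 shares). Since the paralogs are alike in sequence, how reads were divided between them is uncertain. Abcb1b missed the limit without P5 replicate 2 or 3 (adjusted p of 0.0194 and 0.0187, limma).

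Abcg2, the second large drug pump of barrier ECs (mm9 chr6:58534517-58642863), was at 649, 660 and 676 FPKM at P5 and at 910, 907 and 680 FPKM at P30. The P30 values were all above the P5 values, although P30 replicate 3 exceeded the highest P5 isolation only slightly. The mean was 662 ± 14.1 at P5 and 832 ± 132 at P30 (SD, n = 3 each), with a log2 difference of 0.32 and a 95% interval from 0.01 to 0.62 (adjusted p = 0.0907, limma). Without P30 replicate 3 the log2 difference was 0.46 and passed (adjusted p = 0.00789, limma). At P30, but not at P5, the isolations of Abcg2 were in the order of the RPE, photoreceptor, melanocyte and Schwann cell markers. P30 replicate 3 had the lowest RPE sum of its age. The part of such cells was not tested. The ratio of Abcb1a to Abcg2 was 0.42, 0.33 and 0.24 in the P5 replicates and 0.78, 0.84 and 0.98 in the P30 replicates.

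The bases before the transcription start of the 3 genes that rose at least 2-fold are shown because beta-catenin acts on DNA through Lef1 and TCF proteins, which are known to bind CTTTGA and its reverse complement TCAAAG. Capitals mark matches to these letters on either strand, and each sequence is 250 bases read 5′ to 3′ on the strand of the gene and ends at the base before the start. The sequences of Lef1 and Mfsd2a are those of RefSeq on GRCm38.p6, placed on mm9 by an exact match, at chr3:130812991-130813240 (plus strand) and chr4:122638432-122638681 (minus strand). For Abcb1a the bases before the annotated gene start were read from the mm9 genome, at chr5:8659827-8660076 (plus strand).
Lef1: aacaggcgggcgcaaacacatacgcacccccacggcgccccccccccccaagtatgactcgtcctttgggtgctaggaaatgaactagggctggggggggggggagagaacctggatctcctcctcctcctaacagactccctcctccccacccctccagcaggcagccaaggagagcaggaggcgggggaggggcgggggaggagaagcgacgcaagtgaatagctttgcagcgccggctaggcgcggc
Mfsd2a: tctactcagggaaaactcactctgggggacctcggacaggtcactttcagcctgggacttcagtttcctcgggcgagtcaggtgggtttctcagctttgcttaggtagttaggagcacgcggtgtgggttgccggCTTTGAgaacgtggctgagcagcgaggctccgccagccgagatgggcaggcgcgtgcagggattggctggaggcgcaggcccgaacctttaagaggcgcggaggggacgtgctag
Abcb1a: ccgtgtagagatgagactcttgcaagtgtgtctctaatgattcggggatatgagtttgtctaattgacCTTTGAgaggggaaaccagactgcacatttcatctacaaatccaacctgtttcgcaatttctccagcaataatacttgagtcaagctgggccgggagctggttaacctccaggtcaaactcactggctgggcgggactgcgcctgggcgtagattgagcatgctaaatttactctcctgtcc
The window of Mfsd2a held 1 match, 115 bases before the start, that of Abcb1a held 1 and that of Lef1 held 0. In RefSeq windows of 300 bases (250 before and 50 after a start), 5257 of 32851 windows, or 16%, held the letters on either strand. RefSeq gave such windows for 7 of the 10 genes, 12 in all, and 3 of the 12 held the letters. These were the window of Mfsd2a, one at a start inside the Lef1 gene, 45823 bases from its annotated start, and one at a start 92986 bases before the annotated start of Abcb1a. No window was given for Lrp5, Lrp6 or Apcdd1. A match describes letters and not binding.

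Among the barrier and leakage genes beyond the 10, more rose than fell. Of 27 in the list of transporters, that of transcription factors and that of barrier and leakage genes, 25 were tested. Of the 25, 12 rose, each by at least 2-fold, and 1 fell, or 48% and 4%, beside 8.51% and 10.7% of all genes tested. The median log2 difference was 1.09, beside -0.10 over all genes. The 12 include Plvap, for which a low level, and not a rise, is the barrier property. Leaving out 1 isolation took the number of barrier genes that rose, 15 with Lef1, Mfsd2a and Abcb1a included, to between 5 and 13, and the number was 5 without P5 replicate 2 and 6 without P5 replicate 3.

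**Figure D5:**
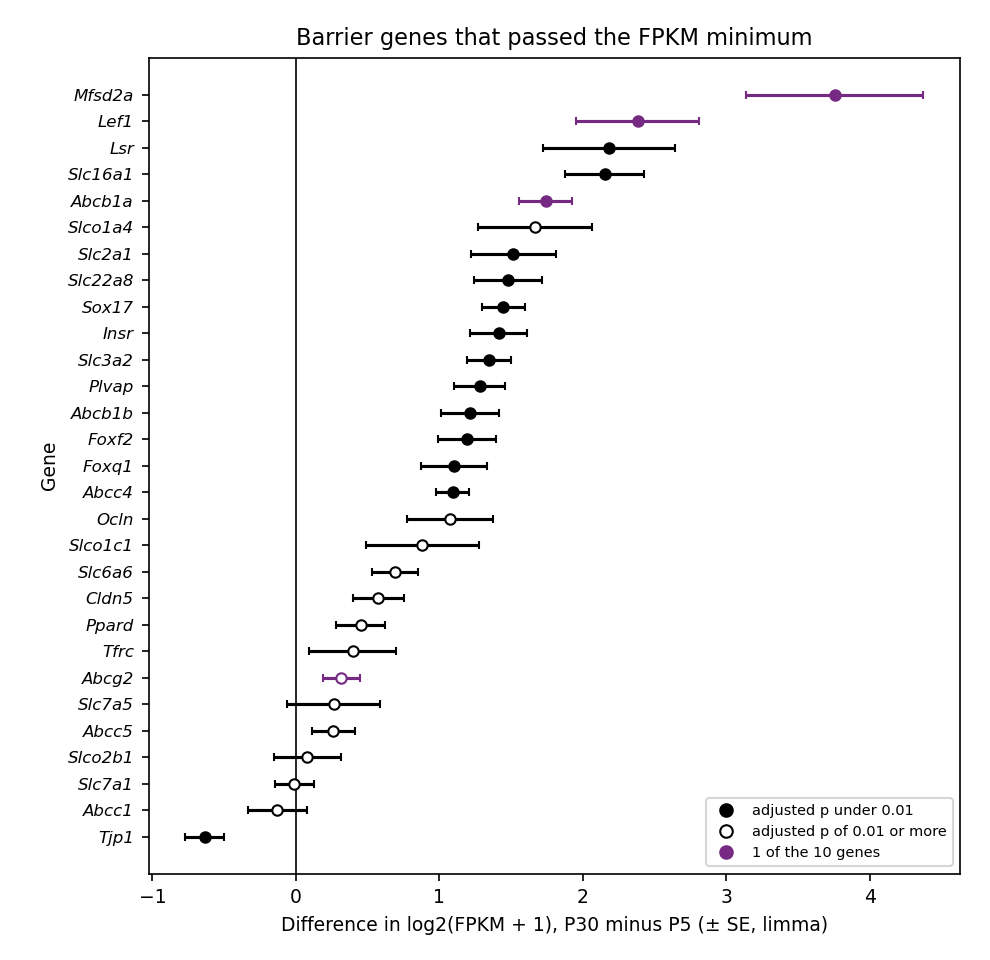
Difference in log2(FPKM + 1), P30 minus P5, with its SE from limma for the 29 barrier genes tested, in purple for those among the 10 genes and filled where the adjusted p was under 0.01. Filled points to the right of 0 are the 15 genes that rose, Plvap among them, and Tjp1 is the 1 that fell.

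Among transporters, Slc2a1 (Glut1), the glucose transporter of barrier ECs and of RPE, had the highest mean FPKM over both ages, although Slc6a6, a taurine transporter, was higher in every P5 isolation. Slc2a1 was at 1077, 1028 and 529 in the P5 replicates and at 3184, 2130 and 2029 FPKM in the P30 replicates. It rose with a log2 difference of 1.52 (SE 0.30, adjusted p = 0.00733, limma) but passed in only 7 of 16 alternatives and missed the limit whichever isolation was left out (adjusted p from 0.0124 to 0.0194, limma). Slc16a1 (Mct1), a lactate transporter, was at 10.4, 10.3 and 13.4 FPKM at P5 and at 70.7, 61.3 and 35.2 FPKM at P30, and rose with a log2 difference of 2.15 (SE 0.28, adjusted p = 0.00138, limma). The P30 replicates of both genes were in the same order as the RPE markers, whose part in these rises was not tested. Within each age the replicates of Slc2a1 were also in the order of the summed melanocyte and Schwann cell markers, as were those of Dvl1, Kremen1, Sox17 and Lsr, and both sums overlapped between ages. At P30 that order was also the order of the RPE and photoreceptor markers, so Dvl1, Kremen1, Sox17 and Lsr shared it there too. The part of such cells was not tested. In the list of 20 transporters, 19 were tested, 9 rose and 0 fell, or 47.4% and 0%, beside 8.51% and 10.7% of all genes tested. Without Mfsd2a, Abcb1a and Abcg2, 7 of 16 rose, or 43.8%.

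Of 6 transcription factors of barrier ECs, 5 were tested and 4 rose (Lef1, Sox17, Foxf2 and Foxq1), or 80%, beside 8.51% of all genes tested. Without Lef1, 3 of 4 rose, or 75%. Foxf2, better known from pericytes but also found in brain ECs, was at 148, 144 and 95.6 FPKM at P5 and at 268, 255 and 361 FPKM at P30, with a log2 difference of 1.19 (SE 0.20, adjusted p = 0.00434, limma). Pericyte markers were also higher at P30, and their part in this rise was not tested. Foxq1 rose from 22.2 ± 6.65 to 47.2 ± 0.825 FPKM (SD, n = 3 each, adjusted p = 0.00948, limma) but passed in only 3 of 16 alternatives and missed the limit whichever isolation was left out (adjusted p from 0.0162 to 0.0258, limma), as Foxf2 did without any 1 of the P5 replicates (0.0111 to 0.0147). As in Lef1, P5 replicate 3 was the lowest isolation in Foxf2, Foxq1 and Sox17.

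Plvap, the protein of the fenestral diaphragm whose level Norrin and Wnt signals hold low in barrier vessels, was far higher than any of the 10 genes. It was at 4622, 4854 and 4601 FPKM in the P5 replicates and at 12092, 8862 and 13816 FPKM in the P30 replicates, without overlap, and rose with a log2 difference of 1.28 (SE 0.18, adjusted p = 0.00182, limma). Under quantile normalization the difference was 0.59 and did not pass (adjusted p = 0.101, limma), and it also missed the limit without P5 replicate 1, 2 or 3 (adjusted p of 0.0104, 0.0119 and 0.0123).

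Cldn5, the main claudin of endothelial tight junctions, was at 3148, 3399 and 2400 FPKM at P5 and at 5167, 3749 and 4380 FPKM at P30, with a log2 difference of 0.57 that did not pass (adjusted p = 0.0373, limma) and was -0.19 under quantile normalization. Lsr, the lipolysis-stimulated receptor of tricellular junctions, rose from 19.8 ± 10.4 to 86.1 ± 30.0 FPKM (SD, n = 3 each, adjusted p = 0.00962, limma). Tjp1 (ZO-1), which ties junctions to the cytoskeleton, fell from 489 ± 25.9 to 317 ± 54.6 FPKM (SD, n = 3 each, adjusted p = 0.00967, limma). The 6 isolations of Tjp1 were in the same order as in the proliferation markers, whose part was not tested. Both calls were close to the limit and were lost in 10 of 16 alternatives each.

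By level at P5, Abcg2 led the 10 genes at a mean of 662 FPKM, higher than 98.6% of the listed genes. Tspan12 and Fzd4 followed, with overlapping values, and then Lrp5, Abcb1a and Lrp6, of which each neighbouring pair overlapped. Apcdd1, Lef1 and Axin2 formed a low group whose neighbours overlapped, and Mfsd2a, at 3.16 FPKM, lay below all of them.

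At P30, Abcg2 and Abcb1a overlapped at the top, and Fzd4, at 614 FPKM, stood apart below them and above Tspan12. Tspan12 and Lrp5 overlapped, Lrp6 and then Lef1 stood apart, and Apcdd1, Mfsd2a and Axin2 overlapped at the low end. Abcb1a thus moved from overlapping Lrp5 and Lrp6 at P5 to lying above every Frizzled and co-receptor value at P30, and Lef1 moved from overlapping Apcdd1 to lying above it.

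The genes whose pattern over the 6 isolations was nearest to that of Fzd4, by the root mean square distance of centred log2(FPKM + 1), were Rhbdd1 (0.04), Gna13 (0.05) and Rin2 (0.06). For Lef1 they were Wfdc1 (0.22), Pcp4l1 (0.23) and Ptprr (0.27), and like Lef1 all 3 were lowest in P5 replicate 3 (28.9, 31.9 and 4.58 FPKM). For Abcb1a they were St3gal6 (0.08), Gcnt2 (0.10) and Synm (0.10). The distances were larger for Lef1 than for Fzd4 and Abcb1a.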

How the data were processed

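RNAseq of sorted choroid ECs was read from the deposited tables, 1 per isolation, each with an FPKM per gene symbol. For these FPKM values the authors used TopHat for alignment to mm9 and Cufflinks for quantification, corrected for GC content and scaled to the upper quartile. CASAVA 1.8.2 and FastQC are named in the submitters' processing notes. Versions of the other tools and the gene annotation are not given in the sources used here. Upper quartile scaling sets the level of a whole sample, so small differences depend on it. The FPKM of a sample summed to 1432700 to 1485332 at P5 and to 1571227 to 1734639 at P30, and no pair of samples held identical values. Depth is unknown: among genes under an FPKM of 2, no bin of 0.05 in the log2 ratio of any pair of samples held over 4.58% of genes, so whole reads could not be recovered.

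Samples were grouped by age from their labels. limma 3.58.1 in R 4.3.3 (lmFit, eBayes with a trend) was fitted to log2(FPKM + 1) with age as its only term, for genes whose mean FPKM reached 5 at either age or both. The fit was tested on simulated data. A gene was called at an adjusted p under 0.01, and counted as 2-fold at a ratio of at least 2 in mean FPKM + 1. Shares were compared by exact permutation, for which 3 against 3 allows no p under 0.1. Gene positions were taken from the GENCODE annotation of mm9 by symbol. Python 3.11.15, pandas 2.3.3, numpy 2.4.6, scipy 1.17.1 and matplotlib 3.10.9 were used.

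The 10 genes, the pathway, barrier and marker lists and the tests were chosen with earlier results of these data known. Named were the 10 genes, the 3 largest 2-fold rises and falls and the gene of highest mean FPKM in each pathway or barrier list, the fixed genes Ndp, Plvap, Cldn5, Slc2a1, Abcb1b, Sox17, Tcf7, Gpr124 and Reck, the 2 highest genes of a marker list, and the 3 genes nearest in pattern to Fzd4, Lef1 and Abcb1a. Named beyond this rule, after their values had been seen, were Fzd6, Wnt7a, Wnt7b, Wnt2, Wnt5a, Wnt6, Wnt9a, Wnt10a, Wnt11, Rspo2, Slc6a6, Slco1c1, Slc38a5, Slc22a8, Spock2, Cdh5, Pecam1, Gsk3b, Ctnnbip1, Dvl1, Kremen1, Foxq1 and Tjp1. So were Fzd2, Fzd3, Fzd10, Sfrp2, Sfrp5, Notum, Rpe65 and Lrat. Of the marker lists, those of photoreceptors (2.21 to 5.99 FPKM at P5 and 39.6 to 317 at P30), smooth muscle (85.1 to 173 and 302 to 1064), fibroblasts (405 to 832 and 1405 to 3175) and lymphatic ECs (362 to 496 and 517 to 645) were higher at P30, that of leukocytes (679 to 860 and 181 to 450) was lower, and those of melanocytes, erythroid cells and Schwann cells overlapped between ages. The authors' DESeq2 results on read counts were not used here.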

Additional observations from a re-analysis of the deposited data

How the results depend on the processing

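Each result was recomputed under 16 alternatives, and under 7 for the shares. Fzd4 and Abcb1a rose in all 16, Axin2, Apcdd1, Lrp6 and Tspan12 passed in 0, Mfsd2a rose in 12, Lrp5 in 13 and Lef1 in 10, and Abcg2 passed in 1. Without the trend Lef1 had a log2 difference of 2.38 (adjusted p = 0.0132, limma). Tspan12 turned to -0.0766 with endothelial scaling, -0.068 with quantile normalization, -0.0990 with the same FPKM sum and -0.0410 without P30 replicate 3, and Lrp6 turned to -0.00512 with the same FPKM sum. Wls turned to -0.0667 and Wnt5b to -0.0738 with endothelial scaling, to -0.0891 and -0.0958 with the same FPKM sum, and Cldn5 to -0.186 with quantile normalization. With 1 isolation left out, log2 differences ran from 0.61 to 0.72 for Lrp5, 1.82 to 2.68 for Lef1, 3.36 to 4.33 for Mfsd2a, 0.25 to 0.46 for Abcg2, 0.11 to 0.24 for Lrp6, -0.0410 to 0.183 for Tspan12, -0.0964 to 0.281 for Wls (below 0 without P30 replicate 2) and -0.299 to 0.312 for Wnt5b (below 0 without P30 replicate 2 or P5 replicate 3). The number of the 10 genes that rose was then 2 to 5 (2 without P5 replicate 2, and 3 without P5 replicate 1, P5 replicate 3, P30 replicate 1 or P30 replicate 2), that of pathway genes that rose 3 to 14 (10 with all isolations) and fell 2 to 7 (6), and that of barrier genes that rose 5 to 13 (15) and fell 0 to 1 (1). Genes past 2-fold numbered 735 higher and 726 lower, 396 to 849 and 291 to 754 with 1 isolation left out (404 and 291 without P5 replicate 2, 396 and 297 without P5 replicate 3, 427 lower without P5 replicate 1), 632 and 1070 with the same FPKM sum, and 610 and 975 with endothelial scaling. Pathway genes that fell numbered 2 without the trend and 11 with the same FPKM sum. Barrier genes that fell numbered 0 with a minimum of 1 FPKM, with no minimum, with a pseudocount of 0.1 and without the trend, where Tjp1 missed the limit. Same-numbered isolations of P5 and P30 did not deviate together (correlations of -0.06, -0.09 and -0.03, with 0.10 the highest between different numbers). No isolation correlated best with its own number. With 3 isolations per age, this check cannot show whether same-numbered isolations were prepared or sequenced together. With the replicate block 585 genes were higher and 524 lower, 3 pathway genes and 0 barrier genes fell, no call among the 10 genes changed, and Gpr124, Ctnnb1, Gsk3b, Dvl1, Abcb1b, Foxf2, Foxq1 and Tjp1 missed the limit. The causes of these changes were not tested. The 3 isolations per age and the unknown depth limit precision, most for low genes such as Mfsd2a at P5.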
